A study of Homo sapiens with 9 samples.

Results

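CDKN1A, BTG2, GADD45A, PLK2, PLK3, SFN and GDF15 are genes that p53 is known to switch on when it halts the cell cycle, and their RNA was followed here. These 7 genes were picked by name from the 78986 genes of the count table, and all 7 were found in it. RNA-seq had been done on stable human HEK293T lines that express p53 from a lentivirus, in 3 groups of 3 biological replicates: WT p53, the G245S mutant and the R273H mutant. G245S and R273H are substitutions in the DNA-binding domain of p53 that are frequent in tumors. The study used the WT line as the control, so the question for each gene is whether its RNA differed between a mutant line and the line expressing WT p53.

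All 3 groups are the same kind of cell carrying the same kind of construct, kept under puromycin selection, and differ by label only in the p53 that the virus encodes. HEK293T derives from human embryonic kidney and carries the SV40 large T antigen, which binds and restrains the cell's own p53, so a response to p53 in this line is measured against that background. The labels name the line HEK 293 and its culture HEK293T. The promoter of the construct is not given in the sources used here, the lines are not described as single clones, and a line without added p53 was not analysed here. Of 7 markers of embryonic kidney and HEK293 cells, 6 averaged at least 1 CPM, with a summed level between 223 and 299 CPM over the 9 libraries, and PAX8 was at or near 0. Most of that sum came from NEFM, NEFL and LIN28B, with means of 145, 51.5 and 37.7 CPM in WT replicates 1 and 2. LHX1, PAX2 and EYA1 were low there, at 6.99, 2.82 and 2.25 CPM. Of 4 blood markers only HBA1 reached 1 CPM and CD3E had no count in any library. CPM stands for counts per 1000000 counts of a library, here after TMM, a correction for differences in composition.

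WT replicate 3 held 1486315 counts, under the limit of 4096044 set as 0.5 times the median of the other 8 libraries, and was left out of the tests. The other 8 libraries held 7325514 to 9667306 counts, so that WT is represented by 2 libraries and each mutant by 3. WT replicate 3 also stood apart in content. KRT19, a keratin of simple epithelia, was at 33.5 CPM in WT replicate 3 and between 0.257 and 1.36 CPM in the other 8 libraries, and the 4 epithelial markers averaging at least 1 CPM stood 2.07 log2 units above the other WT libraries. Its values are given beside those of the fitted libraries below, and the part of these differences in any result was not tested. Among the fitted libraries, markers of other cells were highest in R273H libraries: the summed level of 5 fibroblast markers was 41.5 to 67.9 CPM in WT, 28.8 to 62.7 in G245S and 52.8 to 117 in R273H (105 in WT replicate 3), and DCN was at or near 0. Of the 4 fibroblast genes tested (COL1A1, COL1A2, COL3A1 and LUM), 0 passed the adjusted threshold with edgeR. At an unadjusted p under 0.05 stood 2 in R273H against WT, where 6.11% of all genes did. In R273H against G245S 3 did, where 4.75% of all genes did. The medians of the 4 were 0.68 and 0.81 log2 units. The summed epithelial markers were at 73.2 to 80 CPM in WT, 73.5 to 77.1 in G245S and 82.9 to 84.3 in R273H. The single genes did not move as 1 in R273H against WT. EPCAM was 1.13 log2 units higher (adjusted p = 0.675, edgeR) and CDH1 was lower, at −0.56 (adjusted p = 0.953, edgeR). KRT8 and KRT18 were at 0.09 and 0.11, and KRT19 did not pass the filter. The part of these fibroblast and epithelial markers in the R273H results was not tested. The samples are bulk RNA, so fewer cells using a gene and less RNA per cell cannot be told apart.

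p53 binds DNA as a tetramer at a pair of adjacent 10-base blocks and raises transcription of the gene nearby. Its arrest targets act at different points of the cycle. The CDKN1A product p21 blocks the cyclin-dependent kinases that drive entry into S phase. BTG2 is an antiproliferative partner of the CCR4-NOT deadenylase, GADD45A and SFN (14-3-3 sigma) restrain the CDK1 and cyclin B complex at entry into mitosis, PLK2 and PLK3 are stress-responsive polo-like kinases, and GDF15 is a secreted TGF-beta family cytokine. Hotspot mutations in the DNA-binding domain are known to weaken binding to such sites. The genes also have other inducers: BTG2, GADD45A, PLK2 and PLK3 respond to growth factors or damage, and GDF15 is a target of the integrated stress response.

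The letters to which p53 could bind were searched around each gene, to show which kind of site stands near the members. In GRCh38, within 5 kb of the start of the canonical GENCODE transcript and on both strands, the p53 consensus was taken as a pair of 10-base blocks without a spacer, with both 4-base cores intact and at most 2 mismatches elsewhere. The closest match of each gene is shown 5′ to 3′ on the strand given, with the 4-base core of each block in capitals.
CDKN1A, chr6:36676449-36676468, plus strand: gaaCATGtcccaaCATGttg
BTG2, chr1:203303642-203303661, plus strand: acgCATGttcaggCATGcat
GADD45A, chr1:67686775-67686794, plus strand: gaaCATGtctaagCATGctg
PLK2, chr5:58462274-58462293, minus strand: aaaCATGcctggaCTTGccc
SFN, chr1:26867106-26867125, plus strand: aggCATGcaccagCATGtcc
GDF15, chr19:18385308-18385327, plus strand: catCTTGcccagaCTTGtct

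The PLK2 match has 0 mismatches and lies 2207 bases before the start. The GADD45A match has 1 mismatch and lies 1574 bases after the start, in intron 3. The other 4 each carry 2 mismatches. Of these, the CDKN1A match lies 2265 bases before the start of the canonical transcript, overlapping the first bases of a longer form of the gene, and the BTG2 match lies 1877 bases before the start, within the divergent transcript BTG2-DT. The GDF15 match is 850 bases before the start, inside the span of a longer GDF15 form, and the SFN match is 3957 bases after the start, beyond the end of this gene of 1 exon. No match was found for PLK3 in this window. Among the 12477 protein-coding genes tested, 627 (5.03%) had a match by the same rule. The 7 genes were chosen as p53 targets, so the 6 with a match describe them and are not a finding. A match is a description of letters, not a measured binding site.

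**Figure D1:**
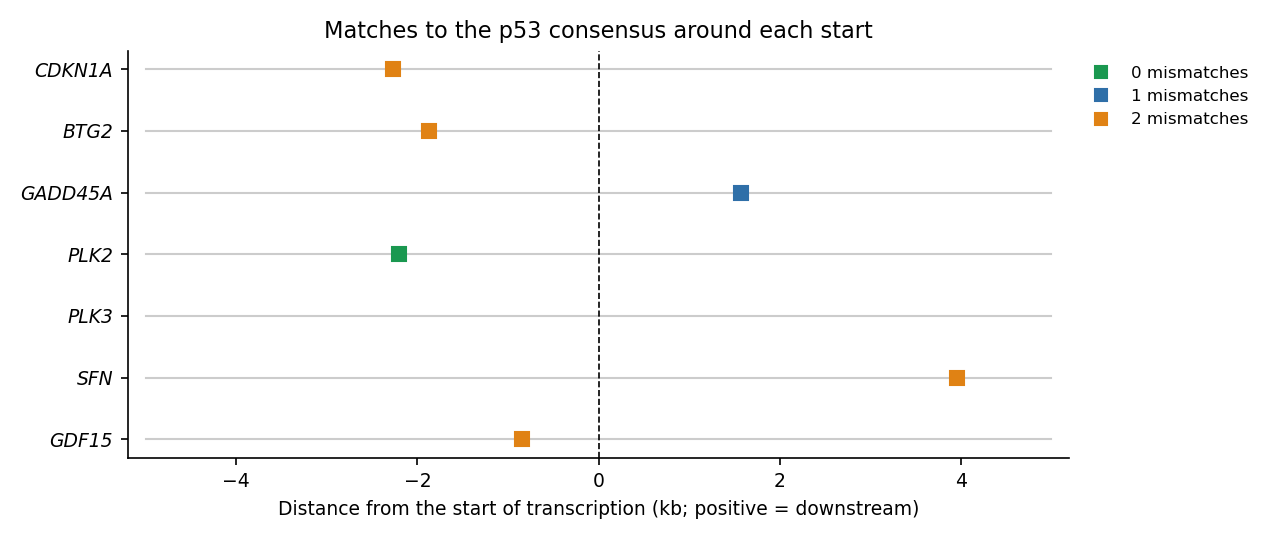
Distance in kb of the closest p53 consensus match (square, colored by its number of mismatches) from the start of transcription (dashed line at 0) for each gene, with positive values downstream along the gene. The matches of CDKN1A, BTG2, PLK2 and GDF15 lie before the start, those of GADD45A and SFN after it, and PLK3 has none.

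CDKN1A (ENSG00000124762, chr6:36676460-36687397, plus strand, 3 exons) was lower in both mutant lines than in the WT line by level, and neither difference passed the test over all genes. It was at 14.9 and 18.4 CPM in the fitted WT libraries, at 7.31, 10.1 and 11.4 CPM in G245S, and at 11.8, 14.2 and 11.7 CPM in R273H. Every mutant library was below both WT libraries, and G245S lay below R273H without overlap. The log2 fold change was −0.79 (SE 0.18, adjusted p = 0.206 over all genes by edgeR's quasi-likelihood test) in G245S and −0.41 (SE 0.14, adjusted p = 0.685) in R273H. WT replicate 3 was at 19.5 CPM from 28 counts, above both other WT libraries, and with it in the fit the G245S change was −0.83 (adjusted p = 0.212). Without WT replicate 2 the R273H change was −0.25. CDKN1A in G245S passed the threshold with edgeR's exact test (adjusted p = 0.0131) and when genes with low counts were not filtered out (adjusted p = 0.000377). A long noncoding gene, DINOL, overlaps CDKN1A on the other strand, but counting was strand-specific and DINOL had 1 count in all 9 libraries together.

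BTG2 (ENSG00000159388, chr1:203305491-203309602, plus strand, 2 exons) had the smallest adjusted p of the 7 genes in any comparison, in R273H. Its levels were 15.9 and 18.04 CPM in the fitted WT libraries, 15.1, 8.60 and 14.1 CPM in G245S, and 10.6, 10.8 and 10.3 CPM in R273H. The 3 R273H libraries were nearly equal and well below WT, while G245S ranged from close to WT down to the lowest value of all. The log2 fold change was −0.68 (SE 0.13, adjusted p = 0.072, edgeR) in R273H and −0.40 (SE 0.19, adjusted p = 0.751) in G245S. Without G245S replicate 2 the latter was −0.20. With WT replicate 3, at 14.7 CPM, G245S overlapped WT, R273H did not, and the adjusted p in R273H was 0.144. The R273H change passed the threshold with edgeR's exact test (adjusted p = 0.00236), without the filter (adjusted p = 0.00357) and when only protein-coding genes were tested (adjusted p = 0.042).

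GADD45A (ENSG00000116717, chr1:67685201-67688334, plus strand, 4 exons) was lower by level in both mutants. The fitted WT libraries held 19.4 and 23.2 CPM, the G245S libraries 15.7, 13.9 and 17.5 CPM, and the R273H libraries 15.5, 11.8 and 13.4 CPM. All 6 mutant libraries lay below both fitted WT libraries, and the 2 mutants overlapped each other. The log2 fold change was −0.42 (SE 0.14, adjusted p = 0.586, edgeR) in G245S and −0.64 (SE 0.14, adjusted p = 0.158) in R273H. WT replicate 3, at 16.8 CPM from 24 counts, fell within the range of G245S and above that of R273H. In R273H the change passed with edgeR's exact test (adjusted p = 0.0103) and without the filter (adjusted p = 0.00356).

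**Figure D2:**
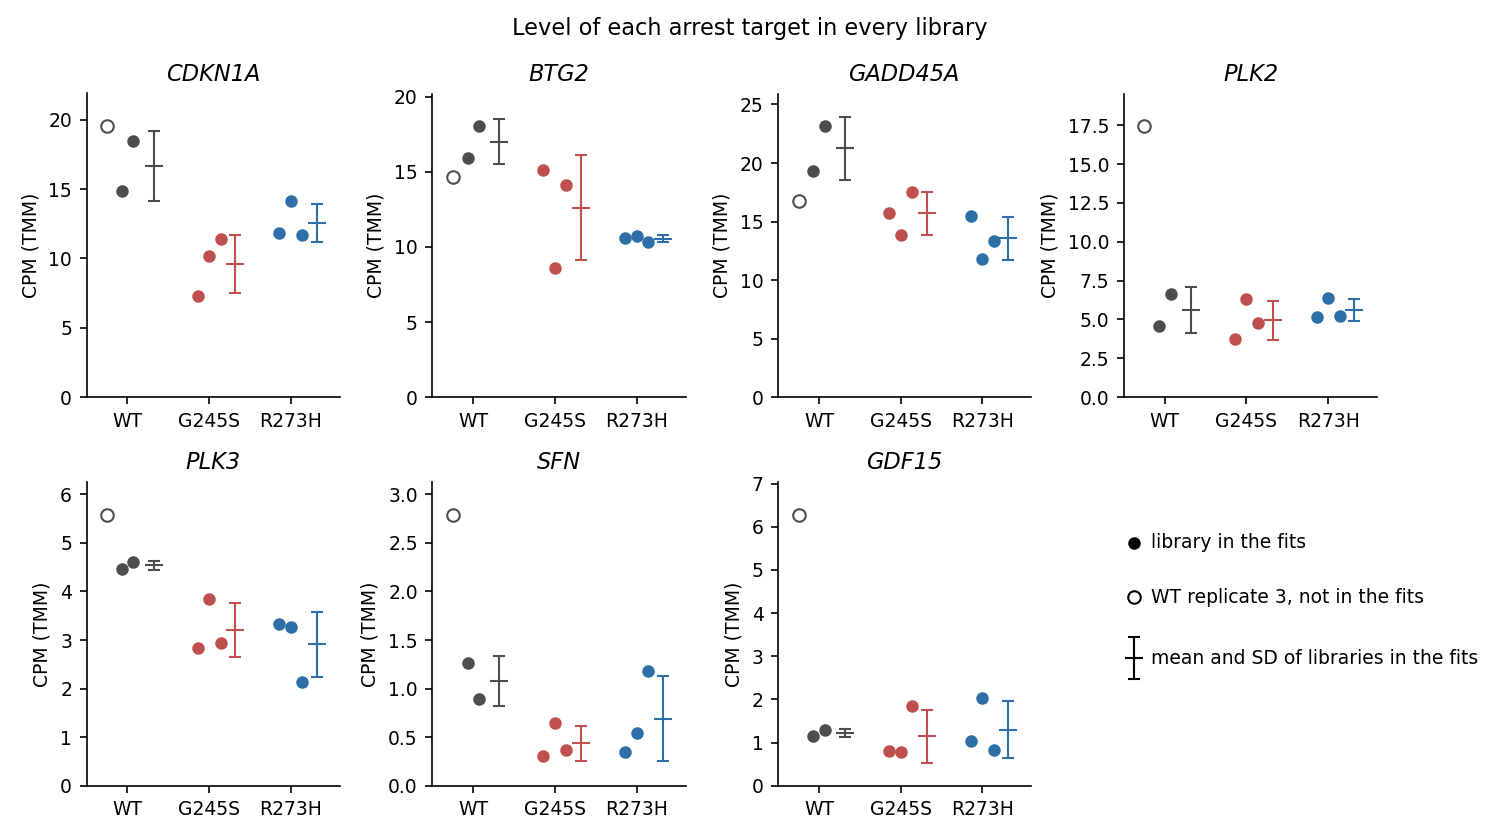
TMM-scaled CPM of the 7 genes in each of the 9 libraries, 1 panel a gene with its own axis from 0; filled points are the 8 fitted libraries, open points are WT replicate 3, and the cross with bars is the mean and SD of the fitted libraries of a group. The mutant points of CDKN1A, BTG2, GADD45A and PLK3 all lie below the filled WT points, and the open points of PLK2, SFN and GDF15 lie above every other point of their panels.

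PLK3 (ENSG00000173846, chr1:44800377-44805995, plus strand, 15 exons), a polo-like kinase induced by stress, followed the same order at a lower level. It was at 4.47 and 4.61 CPM in the fitted WT libraries, 2.84, 3.85 and 2.94 CPM in G245S, and 3.33, 3.27 and 2.13 CPM in R273H. No mutant library reached the level of a WT library, WT replicate 3 at 5.58 CPM included. The log2 fold change was −0.50 (SE 0.24, adjusted p = 0.757, edgeR) in G245S and −0.64 (SE 0.25, adjusted p = 0.742) in R273H. PLK3 counts were not whole in 5 of 9 libraries, as counting gave a fraction to reads shared with other places in the genome, and DYNLT4 overlaps it on the other strand.

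PLK2 (ENSG00000145632, chr5:58453982-58460139, minus strand, 14 exons), the family member with the exact consensus match, showed no separation. Its levels were 4.58 and 6.65 CPM in the fitted WT libraries, 3.76, 6.29 and 4.78 CPM in G245S, and 5.17, 6.40 and 5.21 CPM in R273H. The 3 groups overlapped, and the log2 fold changes were −0.19 (95% interval −0.72 to 0.35) in G245S and −0.002 (−0.46 to 0.46) in R273H, with adjusted p = 0.932 and 1 (edgeR). The sign for R273H turned with the scaling, to 0.02 on library size alone. WT replicate 3 was different: it held 17.4 CPM from 25 counts, 3.14 times the other WT libraries (95% interval 1.93 to 4.93, counting error only). With that library in the fit the G245S change was −0.55 (adjusted p = 0.844) and the R273H change −0.35 (adjusted p = 0.964).

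SFN (ENSG00000175793, chr1:26863149-26864456, plus strand, 1 exon), which encodes the 14-3-3 sigma protein of epithelia, was close to the floor of 3 counts. It had 11 and 7 counts in the fitted WT libraries, 3, 5 and 3 in G245S, and 3, 4 and 10 in R273H, or 1.26 and 0.896 CPM, 0.305, 0.642 and 0.368 CPM, and 0.344, 0.545 and 1.18 CPM. G245S lay below WT without overlap, and R273H overlapped WT through 1 library. Pooled, G245S held 0.392 times the WT level (95% interval 0.167 to 0.877) and R273H 0.638 times (0.309 to 1.31). Those intervals cover counting error only, not the spread between cultures. SFN did not pass the filter on low counts in G245S against WT, and in R273H its log2 fold change was −0.63 (SE 0.54, adjusted p = 0.97, edgeR). WT replicate 3 had 4 counts, or 2.79 CPM.

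GDF15 (ENSG00000130513, chr19:18374731-18389176, plus strand, 2 exons) was as low and showed no difference that these counts could resolve. It had 10 and 10 counts in the fitted WT libraries, 8, 6 and 15 in G245S, and 9, 15 and 7 in R273H. In CPM the levels were 1.15 and 1.28 in WT, 0.812, 0.771 and 1.84 in G245S, and 1.03, 2.04 and 0.829 in R273H. The highest library of each mutant was above WT and the other mutant libraries were below it. The log2 fold change was −0.09 (95% interval −1.10 to 0.91, adjusted p = 0.983, edgeR) in G245S and 0.07 (−0.89 to 1.04, adjusted p = 0.997) in R273H. WT replicate 3 had 9 counts, or 6.28 CPM, 5.2 times the other WT libraries (95% interval 2.08 to 11.9, counting error only), and with it in the fit the R273H change was −0.44. The microRNA gene MIR3189 lies within GDF15 on the same strand.

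The order of the genes by level in the WT line was set per length, as TMM-scaled CPM per kilobase of exon. GADD45A stood highest at 11 CPM per kb, followed by BTG2 at 6.16 and CDKN1A at 5.45. PLK3 (1.36) and PLK2 (1.21) came next, then SFN (0.824) and GDF15 (0.581). BTG2 and CDKN1A did not differ beyond their spread, since their group means in WT were 17 ± 1.5 and 16.7 ± 2.5 CPM (SD, n = 2) at similar lengths. Before scaling by length PLK2 was the higher of the polo-like kinases, at 5.62 ± 1.47 CPM over 4647 bases. PLK3 was at 4.54 ± 0.0985 CPM over 3332 bases. Their order per kb was not set against its spread. SFN and GDF15 rest on 18 and 20 WT counts.

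Read as a group against WT in G245S, 6 of the 7 genes passed the filter on low counts, 0 of those 6 passed the adjusted threshold with edgeR's quasi-likelihood test, and 0.126% of all 15893 genes tested did so. At an unadjusted p under 0.05, 2 of 6 were lower (CDKN1A and GADD45A), where 3.30% of all genes were. DESeq2 called 0 of the 7 and edgeR's exact test 1, CDKN1A. Every G245S library was below both fitted WT libraries for 5 of the 7 genes (CDKN1A, BTG2, GADD45A, PLK3 and the untested SFN), against 10.8% of the genes tested, and 3 of these kept that order with all 3 WT libraries (CDKN1A, PLK3 and SFN), against 5.84%. The median log2 fold change of the 6 was −0.41, beside 0.003 over all genes.

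In R273H all 7 passed the filter and 0 passed the adjusted threshold with edgeR's quasi-likelihood test, where 0.137% of 16022 genes did. SFN passed it here with 17 counts in R273H and 18 in WT. At an unadjusted p under 0.05, 4 of 7 were lower (CDKN1A, BTG2, GADD45A and PLK3), where 3.33% of all genes were. DESeq2 called 0, and edgeR's exact test called 2, BTG2 and GADD45A. Every R273H library was below both fitted WT libraries for the same 4 genes, against 10.5% of the genes tested, and below all 3 WT libraries for the same 4, against 5.72%. The median log2 fold change of the 7 was −0.63, beside 0.002 over all genes. That median is the value of SFN, and it was −0.41 without R273H replicate 3 and −0.52 where 1 fit of all 3 groups was used. Both comparisons use the same WT libraries, and are therefore not independent.

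**Figure D3:**
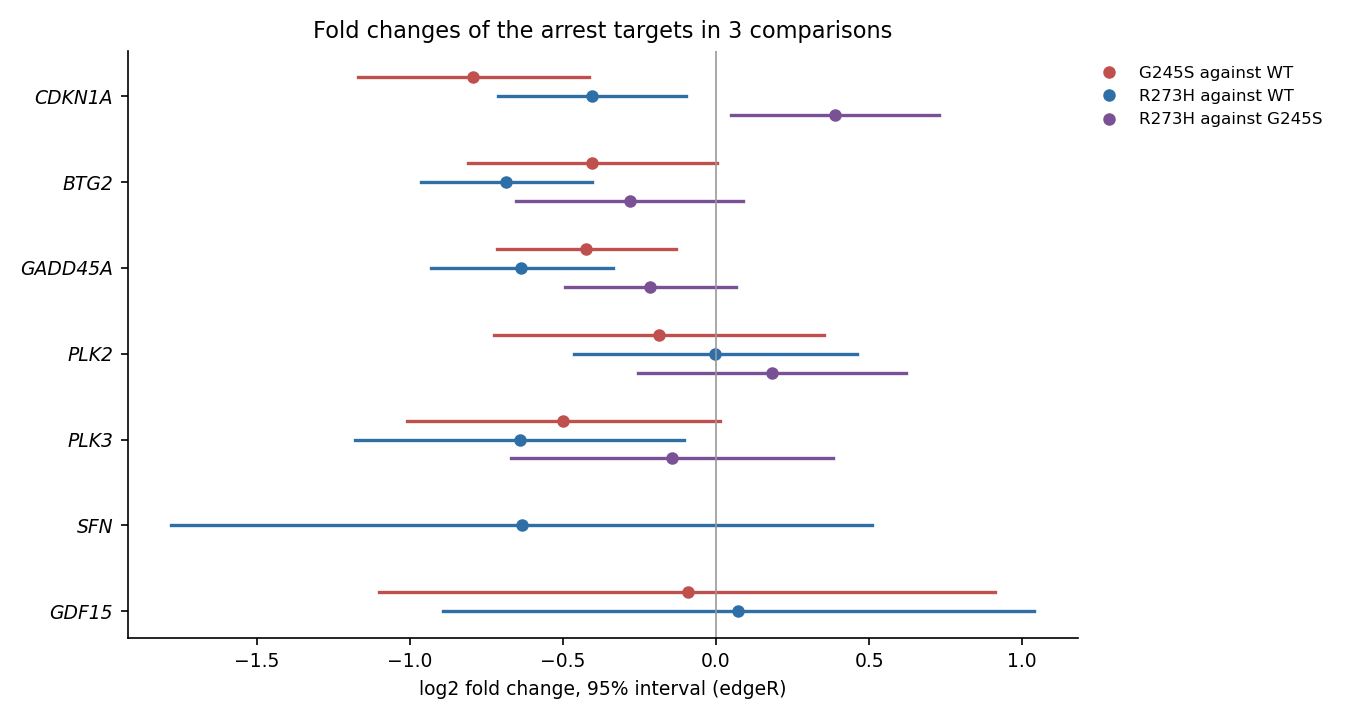
Log2 fold change (points) with its 95% interval (lines) of each gene in G245S against WT, R273H against WT and R273H against G245S, from edgeR's quasi-likelihood test on the fitted libraries; SFN was tested in R273H against WT only, and GDF15 not between the mutants. The intervals of CDKN1A and GADD45A lie below 0 for both mutants against WT, those of BTG2 and PLK3 for R273H, and no adjusted p was under 0.05.

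With the 6 mutant libraries set as 1 arm against the 2 WT libraries, again 0 of the 6 genes that passed the filter reached the adjusted threshold with edgeR's quasi-likelihood test, where 0.189% of 16398 genes did. CDKN1A, BTG2, GADD45A and PLK3 were lower at an unadjusted p under 0.05, 4 of 6 where 3.90% of all genes were. DESeq2 called 0 and edgeR's exact test called GADD45A (adjusted p = 0.0232). The log2 fold changes were −0.59 for CDKN1A (SE 0.17, adjusted p = 0.335), −0.54 for BTG2 (SE 0.17, adjusted p = 0.399), −0.53 for GADD45A (SE 0.13, adjusted p = 0.159) and −0.57 for PLK3 (SE 0.21, adjusted p = 0.565). This comparison shares every library with the single ones and adds no samples. The 4 genes lay below WT in all 6 mutant libraries, against 4.60% of the genes tested.

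Set directly against each other, the mutants differed in none of the 7 genes by the adjusted threshold. In R273H against G245S, 5 genes passed the filter and 0 were called by edgeR's quasi-likelihood test, where 0% of 15614 genes were. DESeq2 and edgeR's exact test called none of the 7 either. CDKN1A was the 1 gene with an unadjusted p under 0.05, a rate met by 4.75% of all genes. It was higher in R273H by 0.39 log2 units (95% interval 0.05 to 0.73, adjusted p = 0.994, edgeR), and its 3 R273H libraries lay above all 3 G245S libraries, against 4.63% of the genes tested. On leaving out 1 library the CDKN1A difference ran from 0.21 (without G245S replicate 1) to 0.53 (without G245S replicate 3), and its unadjusted p was above 0.05 without G245S replicate 1 or R273H replicate 2 and with DESeq2. BTG2 differed by −0.28 (−0.65 to 0.09) and GADD45A by −0.21 (−0.49 to 0.07), both toward lower levels in R273H. The BTG2 difference was −0.12 without G245S replicate 1 and −0.49 without G245S replicate 2. PLK2 differed by 0.18 (−0.26 to 0.62), with 0.006 and 0.38 without those same libraries and 0.08 without R273H replicate 2, and PLK3 by −0.14 (−0.67 to 0.38). For the 5 genes tested, the intervals leave room for differences between the mutants of up to 0.73 log2 units. SFN and GDF15 were not tested between the mutants. Pooled counts put R273H at 1.63 times G245S for SFN (95% interval 0.719 to 3.84, counting error only). For GDF15 the ratio was 1.13 (0.656 to 1.93).

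The 7 genes did not vary together tightly. Over the 8 fitted libraries, Pearson's r of log2 CPM was highest between BTG2 and GADD45A (0.839), lower between CDKN1A and PLK2 (0.647) or CDKN1A and GADD45A (0.44), and negative between BTG2 and PLK2 (−0.32). G245S replicate 2 shows the split: it had the lowest BTG2 level of all 9 libraries and a PLK2 level among the highest of the fitted ones. These correlations are over 8 libraries of 3 groups that share their WT level, and they describe the libraries only. Averaged over the 6 genes at 1 CPM or more, the level relative to the fitted WT libraries was −0.56, −0.47 and −0.22 log2 units in G245S and −0.38, −0.21 and −0.56 in R273H. It was 0.62 in WT replicate 3, where the genes went both ways. Against the other WT libraries, GDF15 was at 5.2 times, PLK2 at 3.14, PLK3 at 1.23 and CDKN1A at 1.18, while BTG2 was at 0.866 and GADD45A at 0.792.

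Among 12 other p53 targets linked to arrest, 2 passed the threshold in some comparison, both toward lower levels in the mutants. TP53INP1, a stress-induced nuclear protein that acts with p53, was at 7.45 and 7.93 CPM in the fitted WT libraries, 3.452, 3.596 and 3.434 CPM in G245S, and 4.82, 3.95 and 2.96 CPM in R273H. Both mutants lay below WT without overlap, also against WT replicate 3 at 9.77 CPM. It fell by 1.13 on the log2 scale in G245S (SE 0.20, adjusted p = 0.0399, edgeR), and its R273H value was −0.97 (SE 0.22, adjusted p = 0.162). The G245S call was lost in 11 of 19 alternatives, with adjusted p of up to 0.48 (WT replicates 1 and 3). These were the 3 other choices of WT libraries, leaving out any 1 library of that comparison, upper-quartile scaling, library size alone and DESeq2.

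SESN1, a sestrin that restrains growth signalling, was at 25.3 and 24.7 CPM in the fitted WT libraries, 17.5, 14.5 and 16.1 CPM in G245S, and 17.6, 15.2 and 18.5 CPM in R273H. The mutants were lower throughout, and WT replicate 3 at 26.5 CPM sat with WT. SESN1 fell by 0.59 on the log2 scale in both mutants against WT (SE 0.10, adjusted p = 0.0162, edgeR) and was at −0.63 in G245S alone (adjusted p = 0.078) and at −0.54 in R273H alone (adjusted p = 0.153). In the same joint comparison TP53INP1 fell by 1.05 (adjusted p = 0.0138). Both joint calls were lost on leaving out WT replicate 1 (adjusted p = 0.272 for SESN1 and 0.165 for TP53INP1) or WT replicate 2 (0.239 and 0.265), which leaves 1 WT library, and with WT replicates 1 and 3 (0.109 and 0.111) or 2 and 3 (0.0781 and 0.0507). In all, 1 of the 12 was called in G245S, 0 in R273H and 2 in both mutants against WT, all lower, where 0.126%, 0.137% and 0.189% of all genes were called. At an unadjusted p under 0.05 stood 6 of 12 in G245S and 5 of 12 in R273H, where 6.66% and 6.11% of all genes did. By sign, 9 of 12 were lower in G245S, where 49.2% of all genes were, and 10 of 12 in R273H, where 49.3% were. DESeq2 called neither gene in a single comparison and both in the joint one, and edgeR's exact test called both in all 3. PPM1D, the phosphatase that turns p53 off, had −0.44 and −0.39 and E2F7, a repressor of cell-cycle genes, −0.35 and −0.40 in G245S and R273H, with no adjusted p under 0.05 in these comparisons.

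The close relatives of the 7 genes, which are mostly not known as p53 targets, were not called in any comparison with edgeR's quasi-likelihood test. The 7 other CDK inhibitors had a median of 0.007 in G245S and 0.02 in R273H; CDKN2B (p15), the one furthest from 0 in both mutants together among those of at least 5 CPM, was at 0.12 and 0.22, and CDKN3 was at −0.05 in each. None of these 7 had an unadjusted p under 0.05 in either mutant, and DESeq2 and edgeR's exact test called none. Of the BTG and TOB family, 4 of 5 were tested, with BTG3 at −0.18 and −0.05 and TOB2 at 0.18 and 0.02. PLK1 and PLK4, the mitotic and centriolar polo-like kinases, were at 0.14 and 0.18 in G245S and at 0.12 and 0.01 in R273H. The 6 other 14-3-3 genes had medians of 0.05 and 0.06, with YWHAH at 0.11 and 0.06 and YWHAZ at 0.05 and 0.06. Of 17 ligands of the GDF and TGF-beta family, 10 and 12 were tested, with TGFB1 at 0.28 and 0.39 and GDF11 at 0.13 and 0.17. At an unadjusted p under 0.05 stood 0 of the BTG and TOB, polo-like kinase and 14-3-3 genes in both mutants, and 1 and 2 of the ligands, where 6.66% and 6.11% of all genes were, and DESeq2 and the exact test called none of them.

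GADD45B, a paralog of GADD45A that responds to TGF-beta and stress, lay on the other side of WT from GADD45A by level. It was at 8.02 and 8.96 CPM in the fitted WT libraries, 14.01, 14.13 and 14.23 CPM in G245S, and 12.28, 10.48 and 11.96 CPM in R273H. All mutant libraries were above WT, WT replicate 3 at 7.68 CPM included, and G245S was above R273H without overlap. Its log2 fold change was 0.74 (SE 0.14, adjusted p = 0.078, edgeR) in G245S and 0.46 (SE 0.15, adjusted p = 0.629) in R273H, and the G245S value passed the threshold under 5 of 19 alternative analyses. DESeq2 did not call it, and the exact test did in G245S. The difference between mutants was −0.29 (SE 0.12, adjusted p = 0.994, edgeR). GADD45G, another family member with 7 to 19 counts in the fitted libraries, was at 0.76 and 1.01, with adjusted p = 0.797 and 0.807. GADD45GIP1, which encodes a GADD45-binding protein, was at −0.10 and 0.02.

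**Figure D4:**
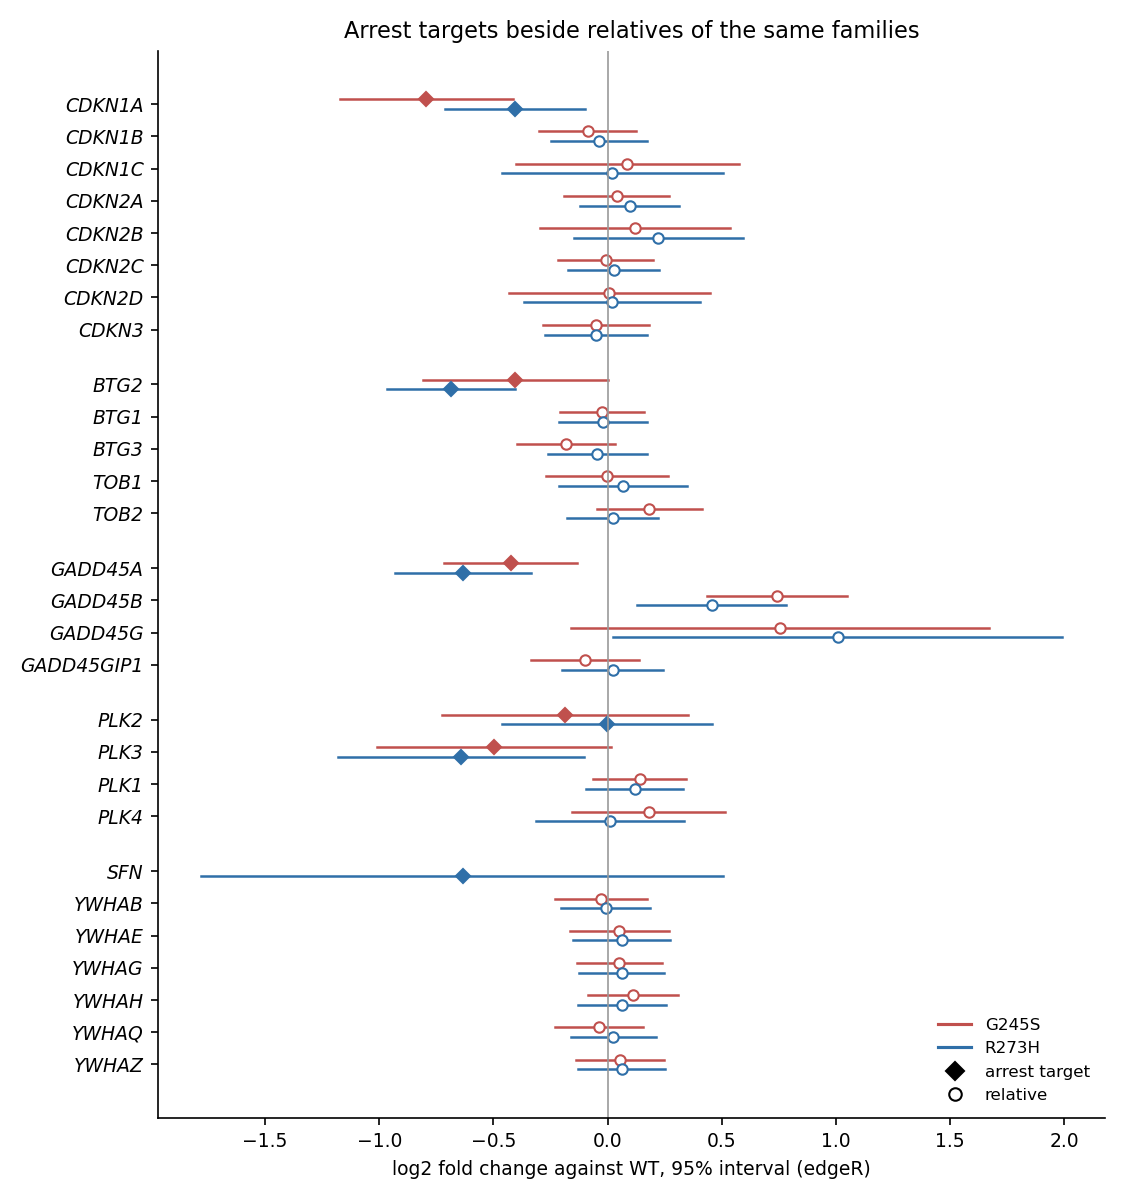
Log2 fold change against WT (points) with 95% intervals (lines) in G245S and R273H, for the arrest targets (filled diamonds) above the tested relatives of their families (open circles). Most relatives lie near 0, and GADD45B and GADD45G lie to the right of 0. The points of CDKN1A, BTG2, GADD45A and PLK3 lie to the left of 0 in both mutants. PLK2 lies near 0 in R273H, and its intervals and that of SFN span 0. No adjusted p of the genes drawn was under 0.05.

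The machinery on which arrest acts was read next. A list of 17 genes was used, of cyclins, CDKs and their phosphatases, with PCNA and WEE1 counted among the 17. All 17 were tested and 0 passed with edgeR's quasi-likelihood test in either mutant. At an unadjusted p under 0.05 stood 1 and 2 in G245S and R273H, where 6.66% and 6.11% of all genes were. PCNA, the replication clamp that p21 binds, had the largest change of those of at least 5 CPM with both mutants together, at 380 ± 37.1 CPM in WT (SD, n = 2), 290 ± 14 in G245S and 311 ± 18.4 in R273H (SD, n = 3). Its log2 fold change was −0.38 (adjusted p = 0.313, edgeR) and −0.29 (adjusted p = 0.645), and edgeR's exact test called it in G245S, the 1 call of this list in a single mutant. With both mutants together PCNA was at −0.34 (adjusted p = 0.149), and DESeq2 (0.0183) and the exact test (0.0164) called it. CCNE2, a cyclin of the G1 to S transition, was at −0.38 and −0.25.

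Because the arrest genes also answer to growth factors and to the integrated stress response, both routes were read in the same fits. Of 20 immediate early genes, 17 were tested and 0 called in any comparison, with medians of −0.13 in G245S and −0.09 in R273H. By sign, 13 of the 17 were lower in G245S, where 49.2% of all genes were, and 11 of the 17 in R273H, where 49.3% were. IER3 was at −0.55 and −0.52 and JUN at −0.21 and −0.42, with adjusted p between 0.15 and 0.754 (edgeR). At an unadjusted p under 0.05 stood 1 of the 17 in G245S and 2 in R273H, against the same 6.66% and 6.11% of all genes, and DESeq2 and the exact test called JUN in R273H. The 12 integrated stress response targets had 0 calls and medians of 0.04 and −0.11, with ASNS at 0.17 and 0.18 and SESN2 at −0.23 and −0.16. By sign, 5 of the 12 were lower in G245S and 8 of the 12 in R273H. Of these targets 1 of 12 had an unadjusted p under 0.05 in each mutant, against 6.66% and 6.11% of all genes, and the exact test called DDIT4 in R273H. The 1 in G245S was SESN2, which is also counted among the other p53 targets above, so the lists are not separate. Averaged over the genes at 1 CPM or more, WT replicate 3 stood 0.55 log2 units above the other WT libraries in the immediate early genes and 0.06 above them in the integrated stress response targets. Single immediate early genes of WT replicate 3 went both ways. IER3 was at 24.4 CPM against 8.36 and 9.47 in the other WT libraries, and JUN at 157.7 lay between their 145.1 and 164.4. DUSP1 was lower, at 18.15 against 27.15 and 28.92, as was MYC, at 85.85 against 118 and 115.9. The epithelial markers of WT replicate 3 were high, and the part of these differences in its PLK2 level was not tested.

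The genes whose profile over the 8 fitted libraries was most like that of a member were read among 11025 genes of at least 5 CPM, as a description of likeness only. For CDKN1A they were SERBP1 (r = 0.97), DDX6 (0.963) and NOP58 (0.957), and for BTG2 they were TRNT1 (0.986), UBA6 (0.965) and KIF3A (0.964). For GADD45A they were ATAD5 (0.988), SOX4 (0.979) and WAPL (0.969), and for PLK2 they were PGAP6 (0.991), AMACR (0.952) and NELFB (0.951). None of these 12 belongs to the lists above, and with 8 libraries and this many genes high values of r are common.

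The promoters of 6 members (250 bases before to 50 after the RefSeq start, GRCh38) held from 59.3% G and C in GDF15 to 74.3% in CDKN1A, beside a median of 65.7% over 10282 promoters of tested genes, and SFN (63.7%) and GDF15 lay below that median; GADD45A was not among the promoters used. PLK2 holds the 1 single p53 block in these windows, shown because it lies close to the start of the gene with the exact match further out. It is at chr5:58460209-58460218 on the minus strand, 132 bases before the start, printed here with 8 bases on each side and the block in capitals.
PLK2 promoter block: gcgggacaAGACTTGCTTcccggcca
Such a block is found in 5.03% of the 10282 promoters. PLK2 was at the same time the member above 5 CPM for which neither mutant was separated from the fitted WT libraries.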

How the data were processed

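RNA-seq of 9 libraries was read from the deposited gene table. Per the study's methods the authors filtered reads with fastp 0.24.0, aligned them with STAR 2.7.11 to GRCh38, removed duplicates by molecular identifier and counted reads per gene with featureCounts of Subread 2.1.1, by strand, splitting a multi-mapping read between its places. What they deposited, and what was used, are expected counts that were not normalized, rounded here to whole numbers. The 9 CPM columns of the authors were not used. Columns of another series numbered 0.

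Genes were filtered with filterByExpr, scaled with TMM and compared by quasi-likelihood testing in edgeR 4.0.16 (R 4.3.3), with Benjamini-Hochberg adjustment over all genes tested and a threshold of 0.05. SE is that of the log2 fold change. WT replicate 3 was left out for depth, below 0.5 times the median of the other 8 libraries. The study also left out 1 WT replicate. Alternatives were DESeq2 1.42.0, edgeR's exact test, other scalings, filters and WT libraries, and leaving out each library. Intervals are 95% and, for ratios of counts, Poisson-based, covering counting error only. Sequences came from the GRCh38 genome with GENCODE annotation and from RefSeq promoters. The limit of 2 mismatches was set after a limit of 1 had been tried.

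The 7 genes and all lists were chosen with earlier results of these data known. Named from each list were genes past the threshold in any comparison. Besides these, the 2 of at least 5 CPM with the largest change were named. Change here was the smaller absolute log2 fold change of G245S against WT and R273H against WT. For each member of at least 5 CPM, the 3 genes with the most similar profile were named. Other genes (KRT19, EPCAM, the collagens, GADD45G and DDIT4 among them) were named after their values were seen.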

Additional observations from a re-analysis of the deposited data

How the results depend on the processing

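Of the 446 member fold changes recomputed under an alternative, 413 kept their direction and side of the threshold, 12 passed it newly and 21 changed sign, all of the latter in PLK2, GDF15 or PLK3. Passing members numbered 1, 2 and 3 in G245S, R273H and both mutants against WT without the filter, 1, 2 and 1 with edgeR's exact test, and 1 in R273H among protein-coding genes.

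Calls over all genes, 20, 22, 0 and 31 in G245S, R273H, R273H against G245S and both mutants, became 144, 93, 125 and 128 without the filter and 73, 61, 4 and 88 with the exact test. DESeq2 called 1 gene between the mutants. All 3 WT libraries gave 10 in G245S. WT replicates 1 and 3 gave 3, 4 and 17 in G245S, R273H and both mutants, and WT replicates 2 and 3 gave 13 in R273H. Leaving out 1 library gave 10 to 30, 16 to 29, 0 to 3 and 17 to 42. An arm left with 1 library is assumed to vary like the others.

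With the replicate number as a block, 76, 47 and 59 genes were called in G245S, R273H and R273H against G245S, and 1 member, CDKN1A in G245S (adjusted p = 0.000623), while TP53INP1 in both mutants was no longer called (0.0727). Deviations of same-numbered libraries had r of −0.138 to 0.268, beside −0.259 to 0.185 for libraries of unlike number. The highest r was that of replicate 2 of G245S with replicate 2 of R273H. Deviations are from group means, so those of the 2 fitted WT libraries mirror each other. Each r with WT replicate 1 therefore recurs with WT replicate 2 at the opposite sign. These values cannot decide whether the numbers are pairs. Not every library correlated best with its own number. The labels do not state a pairing, and the numbers were not taken as pairs in the main fits. Whether replicates share an effect was not tested.

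The ranges on leaving out 1 library were −0.168 to 0.121 for GDF15 in G245S and −0.198 to 0.0903 in both mutants, −0.256 to 0.279 for PLK2 in R273H and −0.343 to 0.188 in both mutants, and −0.261 to 0.044 for PLK3 between the mutants. The sign of PLK2 turned without WT replicate 2 in G245S (0.0947), R273H (0.279) and both mutants (0.188), and in R273H without R273H replicate 1 (0.0495) or 3 (0.0453), with upper-quartile scaling (0.00321), library size only (0.0195) and the replicate block (0.0549). GDF15 turned in G245S without G245S replicate 1 (0.121) or 2 (0.0988). In R273H it turned with all 3 WT libraries (−0.436), WT replicates 1 and 3 (−0.801) or 2 and 3 (−0.845), and without WT replicate 1 (−0.00755). In both mutants it turned without WT replicate 2 (0.0679), G245S replicate 1 (0.0903) or 2 (0.0866), or R273H replicate 1 (0.0288) or 3 (0.0804), and on library size only (0.00446). PLK3 between the mutants turned without R273H replicate 3 (0.044). The members' median moved to −0.765 in G245S with WT replicates 2 and 3, and between the mutants to 0.137 without R273H replicate 3 and 0.149 without the filter. The cause was not tested.

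With 2 WT libraries, the WT spread rests on a single difference between them. Genes near the floor of 3 counts, 0.31 to 0.41 CPM in the fitted libraries and 2.02 CPM in WT replicate 3, are limited by depth.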
